A study of Mus musculus with 12 samples.

Results

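The 40 genes described here are cell-cycle genes of the mouse, picked by name from the 56748 genes listed in the expression tables, and divided into 17 that act before or during DNA replication (S-phase members) and 23 that act in mitosis (mitotic members). They were followed in the liver of 12-week-old mice that all carried pancreatic ductal adenocarcinoma, across 4 groups of 3 libraries each. The isotype group received control antibody or no treatment (the labels give both names). The agoCD40 group received an antibody that activates CD40, a receptor of antigen-presenting cells. The antiIL1R1 group had the interleukin-1 receptor IL-1R1 blocked, and the Combo group received the CD40 agonist together with that blockade. The labels name no strain, tumour model, dose or timing. They also leave unsaid whether every library is its own mouse, and p-values therefore cover the spread of these libraries, which may be technical. RNA came from flash-frozen tissue and was selected for poly(A), and the labels name no sorting of cells. In such bulk samples, fewer dividing cells and less RNA per dividing cell cannot be told apart.

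A cell enters the division cycle when D-type and E-type cyclins with their kinases inactivate the retinoblastoma proteins, which releases E2F transcription factors and switches on the replication genes. Mitotic genes follow later: cyclin A and cyclin B drive the kinase Cdk1, Aurora and Polo-like kinases build the spindle, and the anaphase-promoting complex with Cdc20 ends mitosis. Most hepatocytes of an adult liver rest outside the cycle and re-enter it after injury or loss of tissue, and dividing immune, erythroid and stromal cells contribute to the same RNA pool.

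Promoter sequences show how the S-phase and mitotic members differ in a feature that did not depend on the expression data. RefSeq promoters (GRCm38.p6, 250 bases before to 50 after the gene start) were found for 33 of the 40 genes. On both strands, CCAAT stood in 10 of 14 S-phase and 17 of 19 mitotic genes (71.4% and 89.5%), against 37.4% of 32851 promoters. TTTGAA, the core of the CHR element of mitotic genes, stood in 2 of 14 S-phase and 14 of 19 mitotic genes (14.3% and 73.7%), against 17.9% of all. The E2F cores TTCCCGC or TTGGCGC stood in 7 of 14 S-phase and 3 of 19 mitotic genes (50% and 15.8%), against 6.81% of all. The reverse complement of CCAAT can overlap TTGGCGC, and a match is a string of letters, not a bound site. The 6 stretches that follow run from 180 bases before to 20 after the start, 5′ to 3′ on the gene's strand, with every match to these motifs in capitals. Cdk2, Rrm2, Cdk1 and Cdc20 are shown because the results turn on them, and Mcm6 and Ccnb2 because they hold several copies of the motifs of their phase. The stretches lie for Cdk2 at chr10:128705032-128705231 (minus strand), Mcm6 at chr1:128359686-128359885 (minus) and Rrm2 at chr12:24708074-24708273 (plus) for replication, and Ccnb2 at chr9:70421535-70421734 (minus), Cdk1 at chr10:69352893-69353092 (minus) and Cdc20 at chr4:118437324-118437523 (minus) for mitosis.
Cdk2: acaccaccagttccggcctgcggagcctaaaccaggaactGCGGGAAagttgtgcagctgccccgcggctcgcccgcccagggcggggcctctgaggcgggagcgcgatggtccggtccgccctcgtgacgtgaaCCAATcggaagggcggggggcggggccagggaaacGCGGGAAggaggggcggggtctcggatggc
Mcm6: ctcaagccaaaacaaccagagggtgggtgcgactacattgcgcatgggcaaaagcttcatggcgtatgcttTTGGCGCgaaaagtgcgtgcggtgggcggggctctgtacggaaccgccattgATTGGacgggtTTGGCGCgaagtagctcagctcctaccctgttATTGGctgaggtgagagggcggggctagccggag
Rrm2: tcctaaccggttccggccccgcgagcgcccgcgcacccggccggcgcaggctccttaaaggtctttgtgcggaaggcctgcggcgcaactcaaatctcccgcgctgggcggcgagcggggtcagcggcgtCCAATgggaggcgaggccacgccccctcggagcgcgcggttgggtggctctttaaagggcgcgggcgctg
Ccnb2: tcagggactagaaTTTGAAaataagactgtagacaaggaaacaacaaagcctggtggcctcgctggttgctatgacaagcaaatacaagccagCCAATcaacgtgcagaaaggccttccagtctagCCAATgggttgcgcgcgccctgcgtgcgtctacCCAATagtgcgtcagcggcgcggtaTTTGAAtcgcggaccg
Cdk1: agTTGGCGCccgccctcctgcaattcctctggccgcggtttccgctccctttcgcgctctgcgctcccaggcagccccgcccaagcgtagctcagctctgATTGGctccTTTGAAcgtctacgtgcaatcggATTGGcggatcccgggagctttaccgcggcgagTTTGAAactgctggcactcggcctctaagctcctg
Cdc20: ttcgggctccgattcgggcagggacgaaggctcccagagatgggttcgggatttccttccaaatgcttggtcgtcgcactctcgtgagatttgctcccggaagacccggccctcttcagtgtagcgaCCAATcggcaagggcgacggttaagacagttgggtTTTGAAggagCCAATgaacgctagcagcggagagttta
The Cdk2 and Mcm6 stretches hold E2F cores together with CCAAT, Rrm2 holds CCAAT alone of the 3 motifs, and the 3 mitotic genes hold both CCAAT and TTTGAA. The Cdk1 stretch also holds an E2F core, so the motifs do not divide the phases cleanly.

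Cell-cycle transcripts were scarce in this tissue, the mitotic ones above all. Levels per transcript length are given in TPM (reads scaled for gene length and library total), as medians over the 12 libraries. The lowest S-phase member was Cdc6, which loads the replicative helicase, at 0.0399 TPM. The highest was Pcna, the sliding clamp of DNA polymerase, at 25.5 TPM. The middle of all 17 S-phase members stood at 2.00 TPM and the middle of all 23 mitotic members at 0.338 TPM. The middle of all 15465 genes tested was 4.68 TPM, a set that leaves out genes too low to be tested, unlike the member sets. Ccnd1 (cyclin D1) reached 13.7 TPM, Cdk2 (the partner kinase of cyclins E and A) 6.12 and Tyms (thymidylate synthase) 6.09. Of the S-phase members 13 of 17 had a median of at least 1 TPM, and of the mitotic members 4 of 23. Cdk1, the master kinase of mitosis, was the highest mitotic member at 2.83 TPM, and Cenpf, a kinetochore protein, the lowest at 0.0174 TPM. Cdc6 and the mitotic genes Bub1, Cenpe and Cenpf summed to 58, 47, 79 and 68 counts over all libraries and were too low to be tested. That left 36 members, 16 S-phase and 20 mitotic.

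Libraries held 18681330 to 27118680 counts, and 18 of the 23 mitotic members had a median under 30 counts, against 2 of the 17 S-phase members. A floor of 3 counts, which covers counting error only, corresponds to 0.110 to 0.161 CPM (counts scaled to the library total). The biological coefficient of variation, the relative spread between libraries of a group, had a median of 0.554 over the mitotic members tested and 0.293 over the S-phase members. All genes tested had a median of 0.246, and the 2900 of them in the mitotic members' range of mean counts had 0.443. The hepatocyte markers Alb and Apoa1 were among 8 of 8 present in every library. Of the pancreas markers, Cpa1, Pnlip, Amy2a5 and Ptf1a were at 0 counts in all 12 libraries, and Prss2 in 11. The pancreas marker Cela1 was present in every library, with a mean of 12.96 CPM. Mitochondrial genes took 6.23% to 14.8% of counts, with the highest shares in isotype 2 (14.1%) and antiIL1R1 2 (14.8%).

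Single libraries stood apart in mitotic RNA within the treatment groups. The summed level of the 23 mitotic members was 18, 14.3 and 28.4 CPM in isotype libraries 1, 2 and 3, and 20.2, 16.9 and 39.95 CPM in agoCD40. It was 12.0, 18.6 and 18.9 CPM in antiIL1R1, and 41.3, 16.8 and 16.4 CPM in Combo. The agoCD40 3 and Combo 1 libraries lay far above the others of their groups, and isotype 3 lay above isotype 1 and 2. The group means of 20.2 ± 7.34 (SD, n = 3), 25.7 ± 12.5, 16.5 ± 3.91 and 24.9 ± 14.3 CPM, in the same order, lay closer together than the libraries of the agoCD40 or Combo group.

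**Figure D1:**
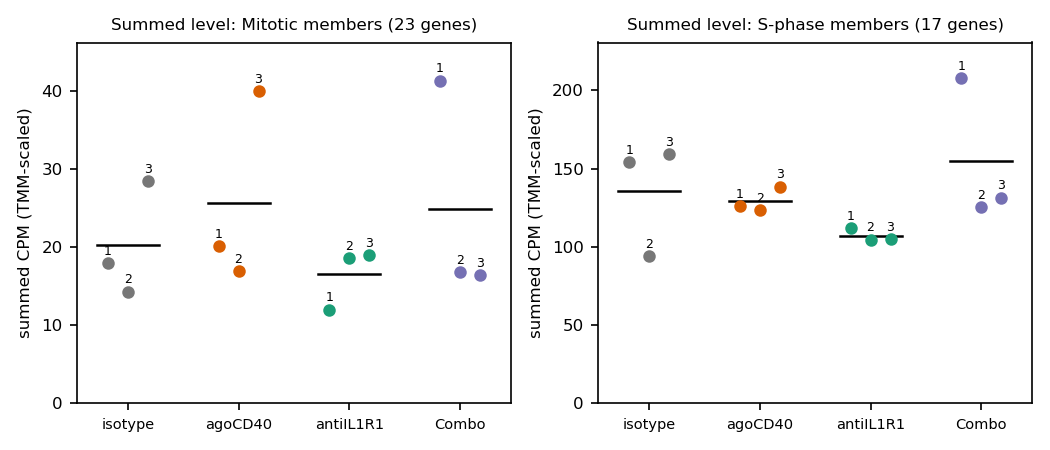
Summed CPM of the 23 mitotic and the 17 S-phase members in each library (points, with replicate number) and the group mean (line), both axes from 0. In the mitotic panel agoCD40 3 and Combo 1 stand at 39.95 and 41.3 CPM while the other 4 agonist-treated libraries lie between 16.4 and 20.2 CPM.

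Most mitotic members were high in the same libraries. Of the 20 tested, 19 were highest in agoCD40 3 among the agoCD40 libraries and 18 were highest in Combo 1 among the Combo libraries. Isotype 3 was the highest isotype library for 14 of the 20. The same libraries were the highest of their group for 31.7%, 34.8% and 33.7% of all genes tested. In antiIL1R1 the highest library varied, with antiIL1R1 2 leading for 10 genes and antiIL1R1 3 for 8. These libraries were singled out after their values were seen. Of the 16 S-phase members tested, 8 were highest of their group in agoCD40 3, 8 in Combo 1 and 7 in isotype 3.

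**Figure D2:**
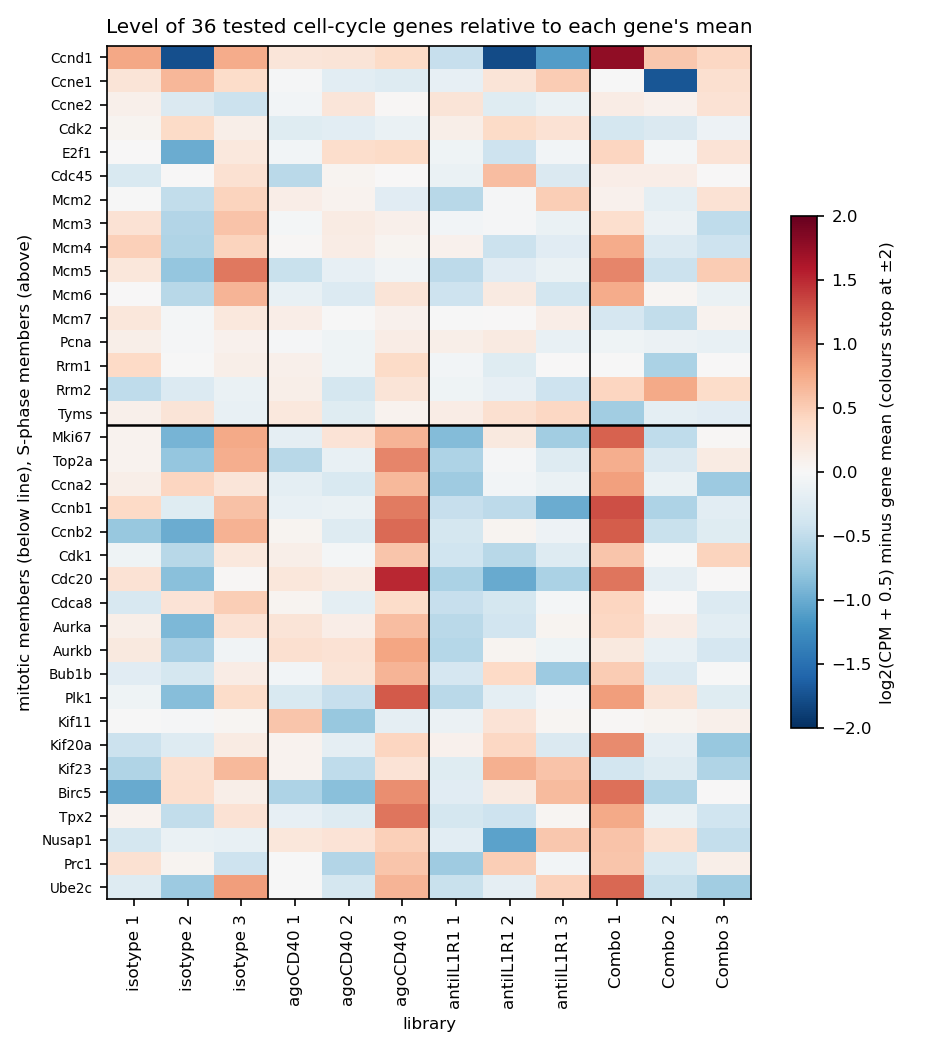
Colour map of log2(CPM + 0.5) minus each gene's mean over the 12 libraries, for the 16 S-phase members (above the line) and 20 mitotic members tested, with libraries grouped by treatment. The columns agoCD40 3 and Combo 1 are red for most mitotic rows, and these columns lie above the median of the 12 libraries for 19 and 18 of the 20 mitotic members.

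In the S-phase sum Ccnd1 and Pcna weigh most. It was 154, 94.2 and 159 CPM in isotype, 126, 123 and 139 in agoCD40, 112, 105 and 105 in antiIL1R1, and 208, 125 and 132 in Combo. Ccnd1 alone accounted for 116 of the 208 CPM of Combo 1 and for 9.54 of the 94.2 CPM of isotype 2.

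Markers of other dividing or infiltrating cells were read in the same libraries. T-cell and NK-cell markers summed to 4.13 to 7.57 CPM in isotype, 6.97 to 12.3 in agoCD40, 2.46 to 5.2 in antiIL1R1 and 6.87 to 10.8 in Combo. They peaked in isotype 3, agoCD40 3 and antiIL1R1 3, but in Combo 2 rather than Combo 1. B-cell markers apart from Sdc1 and Xbp1, which hepatocytes also express and which were set aside after their levels were seen, summed to 11.3 to 16.3 CPM in isotype and 17.7 to 20.5 in antiIL1R1. They summed to 67.1 to 179 CPM in agoCD40, highest in agoCD40 3, and to 93.5 to 122 CPM in Combo, lowest in Combo 1. Erythroblast markers ranged over 229.8 to 617 CPM in isotype, 294 to 892 in agoCD40, 351 to 538 in antiIL1R1 and 673 to 967 in Combo. They were highest in isotype 3 and Combo 1 and lowest in agoCD40 3 within their groups, with Rhag at 0 in all 12 libraries and Gata1 at 0 in 6. Neutrophil precursor markers ranged over 10.7 to 26.7 CPM in isotype, 26.7 to 36.9 in agoCD40, 7.74 to 29.7 in antiIL1R1 and 24.2 to 39.6 in Combo. Of mean sums of 19.9 CPM in isotype and 16.7 in antiIL1R1, Prtn3 alone took 15.1 and 11.8. Prtn3 was lower with the agonist, at 3.58 CPM in agoCD40 and 3.07 in Combo. The other 6 of the 7 genes tested were higher with the agonist, averaged over both blockade states. The part of all these dividing or infiltrating cells in the mitotic levels was not tested.

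The effect of the CD40 agonist, averaged over livers with and without the blockade, set 6 agonist-treated libraries against 6 others and called the most genes of the 7 comparisons with edgeR. Cdk2 fell, and it was the only one of the 36 members tested to pass an adjusted p of 0.05 (edgeR quasi-likelihood test, Benjamini-Hochberg over 15465 genes). That threshold called 2.48% of all genes in this comparison and 0.996% in the downward direction. At an unadjusted p under 0.05 there were 6 of 36 members (16.7%: Cdc20, Cdk1, Cdk2, Rrm2, Ccnd1 and Tyms), a share near the 16.2% of all genes. The 20 mitotic members had a median log2 fold change of 0.59 with 18 positive, the 16 S-phase members -0.02 with 8 positive, and all genes -0.00 with 49.9% positive. The mitotic median was 0.20 (15 positive) without agoCD40 3 and 0.24 (13 positive) without Combo 1. On log2(TPM + 1), a scale that shrinks low genes, it was 0.14. DESeq2 called 3 members, Cdk2, Cdc20 and Rrm2.

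**Figure D3:**
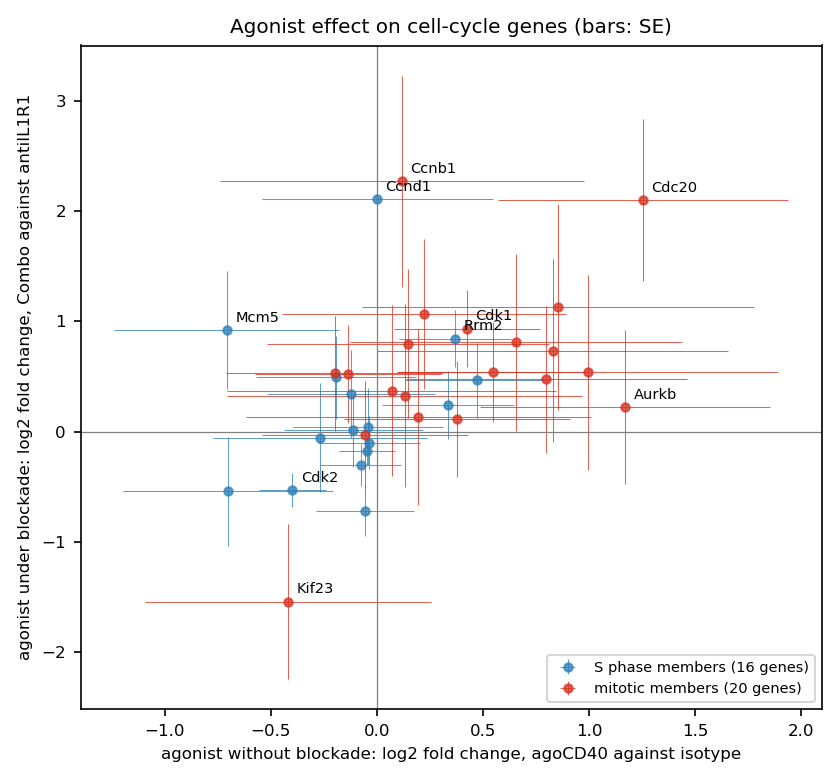
Log2 fold change of each tested member under the agonist without blockade (agoCD40 against isotype, horizontal) and under blockade (Combo against antiIL1R1, vertical), with SE bars, S-phase members in blue and mitotic members in red. Cdk2 is negative on both axes with short bars, while Cdc20 is positive on both with bars of 0.68 and 0.73.

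Among the genes that start the cycle, Cdk2 (ENSMUSG00000025358) was lower in every agonist-treated library. Its level was 12.4, 15.7 and 13 CPM in the isotype libraries, 10.1, 10.3 and 10.8 in agoCD40, 13, 15.7 and 14.6 in antiIL1R1 and 9.27, 9.65 and 11.1 in Combo. All 6 agonist-treated libraries lay under all 6 others. The average agonist effect was -0.46 ± 0.11 (log2, SE), with a 95% interval of -0.70 to -0.22 and an adjusted p of 0.0470 (edgeR), so that the level fell by 27.5%. The separate contrasts gave -0.40 ± 0.16 for agoCD40 against isotype (adjusted p 0.384) and -0.53 ± 0.16 for Combo against antiIL1R1 (adjusted p 0.175). The call was narrow: over the other scalings, tools and left-out libraries the adjusted p ran from 0.00477 (DESeq2) to 0.461 (limma on log2(TPM + 1)), and it passed with RLE scaling, with DESeq2 and without antiIL1R1 1, in 3 of 20 settings. In the TPM table the groups overlapped, with 6.87, 5.95 and 7.7 TPM in isotype, 4.67, 7.14 and 4.93 in agoCD40, 6.78, 6.29 and 6.64 in antiIL1R1 and 5.43, 5.16 and 5.78 in Combo, and the average effect was -0.25 on log2(TPM + 1). Exons of Cdk2 overlap Pmel on the opposite strand and 6 of its 12 counts were not whole, so part of its reads was assigned by estimate, and the labels do not say whether the counting used strand. In all, 14 of the 40 genes have exons overlapping another gene in GENCODE vM21, among them Ccnd1, Mcm7, Top2a, Cdc20, Cdca8 and Ube2c.

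Ccnd1 (ENSMUSG00000070348), which couples growth signals to entry into the cycle, varied most of the S-phase members. It measured 57.7, 9.54 and 56.5 CPM in the isotype libraries, 39.8, 40.2 and 43.9 in agoCD40, 24.2, 9.31 and 15.2 in antiIL1R1 and 116, 49 and 45.1 in Combo. The 3 antiIL1R1 libraries lay below the 3 Combo libraries, and isotype 2 lay within the antiIL1R1 range while Combo 1 was the highest of all. Combo against antiIL1R1 gave 2.11 ± 0.57 (log2, SE; adjusted p 0.145, edgeR), antiIL1R1 against isotype -1.34 ± 0.56 (adjusted p 0.987) and the interaction 2.11 ± 0.78 (adjusted p 0.603). The first of these passed with DESeq2 (adjusted p 0.0454) and without isotype 2 (0.0366). With no filter on low counts the adjusted p of the 3 contrasts was 2.9e-09, 0.00175 and 8.2e-05 (edgeR). That setting called more genes throughout, such as 63 in antiIL1R1 against isotype where the main fit called 0. The spread of Ccnd1 between libraries of a group remained as given above.
Ccne1 (ENSMUSG00000002068), which encodes cyclin E1, the activator of Cdk2, measured 3.48, 4.77 and 3.78 CPM in the isotype libraries, 2.76, 2.36 and 2.28 in agoCD40, 2.46, 3.47 and 4.25 in antiIL1R1 and 2.82, 0.521 and 3.67 in Combo. All agoCD40 libraries lay under all isotype libraries, but the log2 difference of -0.70 ± 0.49 had an adjusted p of 0.736 (edgeR), and Combo 2 stood far below the rest. E2f1 and Ccne2, the transcription factor and the second E cyclin, were under an unadjusted p of 0.05 in no comparison.

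No member of the replication fork passed the threshold. Pcna (ENSMUSG00000027342) measured 30.2, 27.4 and 29.5 CPM in the isotype libraries, 27.4, 26.1 and 31 in agoCD40, 30.2, 31.5 and 25.2 in antiIL1R1 and 26.2, 25.7 and 25.2 in Combo, and its 12 libraries spanned 25.2 to 31.5 CPM. Its average agonist effect was -0.11 ± 0.09 (log2, SE; adjusted p 0.607, edgeR). Of the 6 subunits of the MCM helicase, which unwinds DNA ahead of the fork, none passed in any of the 7 comparisons. Mcm2 (ENSMUSG00000002870) measured 3.22, 2.16 and 4.6 CPM in the isotype libraries, 3.61, 3.43 and 2.69 in agoCD40, 2.05, 3.19 and 4.76 in antiIL1R1 and 3.5, 2.76 and 4.09 in Combo, with an average agonist effect of 0.00 ± 0.25 (adjusted p 0.998). Mcm5 (ENSMUSG00000005410) measured 2.3, 0.904 and 4.49 CPM in the isotype libraries, 1.27, 1.66 and 1.8 in agoCD40, 1.18, 1.55 and 1.71 in antiIL1R1 and 4.25, 1.28 and 2.91 in Combo, where isotype 3 and Combo 1 were again the high libraries. Its interaction, the agonist effect under blockade minus that without, was 1.63 ± 0.75 (adjusted p 0.665), and it was 0.94 without isotype 3.

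Of the enzymes that supply deoxynucleotides, Rrm2 was highest and Rrm1 and Tyms lowest in Combo by group mean of counts, none past the adjusted threshold with edgeR. Rrm1, the large subunit of ribonucleotide reductase, averaged 6.52 CPM in isotype, 6.35 in agoCD40, 5.32 in antiIL1R1 and 4.97 in Combo. It was under an unadjusted p of 0.05 in no comparison (edgeR). Rrm2 (ENSMUSG00000020649), the small subunit of ribonucleotide reductase, which is made in dividing cells, measured 2.36, 2.86 and 3.23 CPM in the isotype libraries, 3.9, 2.69 and 4.34 in agoCD40, 3.32, 3.14 and 2.54 in antiIL1R1 and 5.01, 6.41 and 4.76 in Combo. Each Combo library was above every library of the other groups. Combo against isotype gave 0.93 ± 0.26 (log2, SE; adjusted p 0.181 with edgeR and 0.0436 with DESeq2), Combo against agoCD40 0.56 ± 0.26 (adjusted p 0.796) and the average agonist effect 0.61 ± 0.19 (adjusted p 0.121, 0.0476 with DESeq2). Tyms (ENSMUSG00000025747), which makes thymidylate, measured 5.68, 6.43 and 4.71 CPM in the isotype libraries, 6.15, 4.39 and 5.6 in agoCD40, 5.87, 6.7 and 7.19 in antiIL1R1 and 3.07, 4.52 and 4.43 in Combo. Combo was under antiIL1R1 in every library, with -0.72 ± 0.23 (adjusted p 0.207), and Combo against agoCD40 gave -0.42 ± 0.23 in counts but 0.35 on log2(TPM + 1).

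Among the mitotic regulators, Cdc20 (ENSMUSG00000006398), the activator of the anaphase-promoting complex, had the largest average agonist effect of its set. It measured 1.13, 0.251 and 0.853 CPM in the isotype libraries, 1.06, 0.995 and 3.28 in agoCD40, 0.364, 0.163 and 0.357 in antiIL1R1 and 2.32, 0.681 and 0.843 in Combo. The antiIL1R1 libraries were all under 0.4 CPM, a level of few reads, while agoCD40 3 and Combo 1 led. The average agonist effect was 1.68 ± 0.50 (log2, SE; adjusted p 0.112, edgeR), 1.28 without agoCD40 3, and it passed with DESeq2 (adjusted p 0.0237) and with no filter on low counts (0.0147). Combo against antiIL1R1 gave 2.10 ± 0.73 (adjusted p 0.227) and agoCD40 against isotype 1.25 ± 0.68 (adjusted p 0.611).
Cdk1 (ENSMUSG00000019942) measured 1.93, 1.26 and 2.49 CPM in the isotype libraries, 2.29, 2.03 and 3.31 in agoCD40, 1.46, 1.27 and 1.67 in antiIL1R1 and 3.29, 2.08 and 3.04 in Combo, and every Combo library lay above every antiIL1R1 library. Its average agonist effect was 0.68 ± 0.24 (adjusted p 0.186). Its partner Ccnb1 (ENSMUSG00000041431), cyclin B1, measured 0.911, 0.402 and 1.11 CPM in the isotype libraries, 0.467, 0.479 and 1.69 in agoCD40, 0.273, 0.245 and 0.0397 in antiIL1R1 and 2.11, 0.20 and 0.422 in Combo, so that antiIL1R1 3 held less than the floor of 3 counts. AntiIL1R1 against isotype gave -2.11 ± 0.96 (adjusted p 0.987) with no overlap, and Combo against antiIL1R1 2.27 ± 0.96 (adjusted p 0.291) with overlap.

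**Figure D4:**
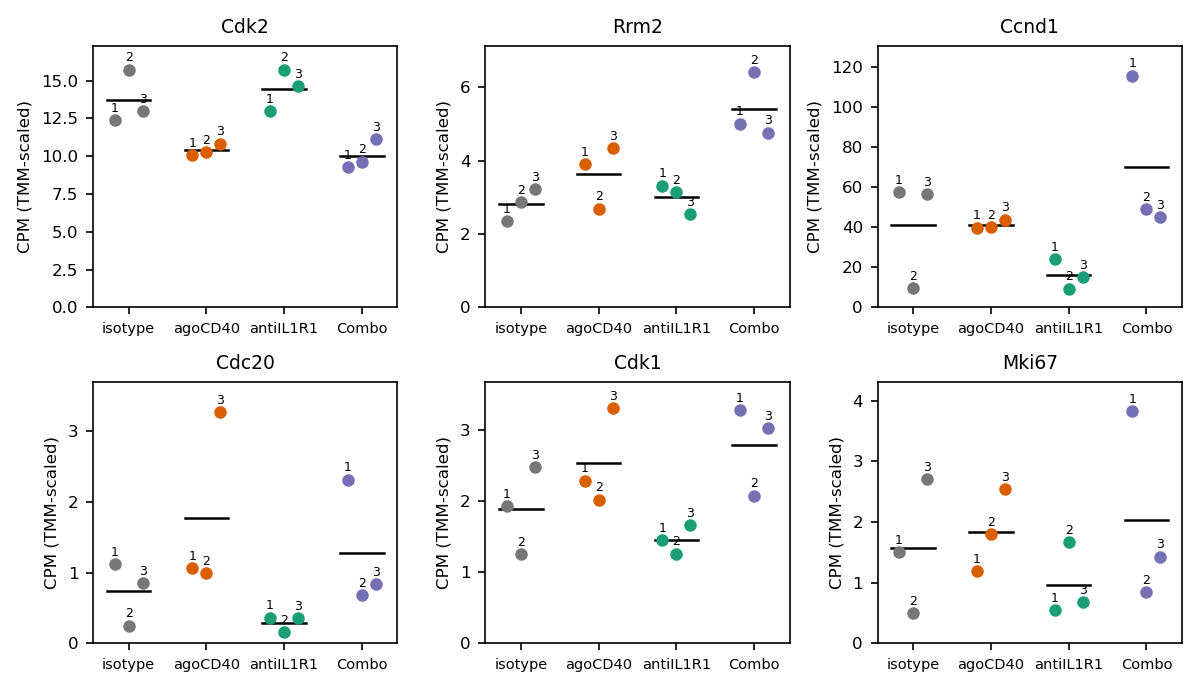
TMM-scaled CPM of Cdk2, Rrm2, Ccnd1, Cdc20, Cdk1 and Mki67 in each library (points, with replicate number) and the group mean (line), each axis from 0. For Cdk2 the 6 agonist-treated libraries lie between 9.27 and 11.1 CPM and the others between 12.4 and 15.7 CPM, while for Mki67 the 4 groups overlap.

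Mki67 and Top2a overlapped between all 4 groups. Mki67 (ENSMUSG00000031004), which encodes the Ki-67 antigen of cycling cells, measured 1.5, 0.502 and 2.71 CPM in the isotype libraries, 1.19, 1.81 and 2.54 in agoCD40, 0.546, 1.67 and 0.675 in antiIL1R1 and 3.83, 0.841 and 1.43 in Combo. Top2a (ENSMUSG00000020914), the topoisomerase that untangles sister chromatids, measured 1.13, 0.402 and 2.04 CPM in the isotype libraries, 0.552, 0.885 and 2.54 in agoCD40, 0.501, 1.02 and 0.794 in antiIL1R1 and 2.06, 0.761 and 1.22 in Combo. Both were highest in isotype 3, agoCD40 3 and Combo 1 of their groups, and each group's range overlapped the others'. Their average agonist effects were 0.64 ± 0.48 (adjusted p 0.542) and 0.47 ± 0.47 (log2, SE; adjusted p 0.67, edgeR).

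Genes of the spindle and of cytokinesis gave no call, and Aurkb and Kif23 had levels of a few reads in some libraries. Aurkb (ENSMUSG00000020897), the kinase of the chromosomal passenger complex, measured 0.59, 0.10 and 0.408 CPM in the isotype libraries, 0.679, 0.664 and 1.14 in agoCD40, 0.137, 0.49 and 0.397 in antiIL1R1 and 0.59, 0.36 and 0.253 in Combo. AgoCD40 lay above both isotype and Combo without overlap, but the log2 difference of 1.17 ± 0.68 against isotype had an adjusted p of 0.653 (edgeR). Combo against agoCD40 gave -1.04 ± 0.67 for it (adjusted p 0.828). Cdca8 (ENSMUSG00000028873), borealin of the same complex, measured 0.804, 1.46 and 1.78 CPM in the isotype libraries, 1.19, 0.922 and 1.58 in agoCD40, 0.683, 0.776 and 1.07 in antiIL1R1 and 1.68, 1.12 and 0.843 in Combo, and its interaction was 0.66 ± 0.63 (adjusted p 0.787). Kif23 (ENSMUSG00000032254), a motor protein of the midbody, was 1 of 2 mitotic members, with Kif11, whose average agonist effect was negative, and measured 0.214, 0.854 and 1.19 CPM in the isotype libraries, 0.637, 0.258 and 0.81 in agoCD40, 0.41, 1.27 and 1.11 in antiIL1R1 and 0.337, 0.40 and 0.211 in Combo. Combo was lower than antiIL1R1 in every library, with -1.54 ± 0.70 (adjusted p 0.319). The remaining mitotic members tested, Ccna2, Ccnb2, Aurka, Bub1b, Plk1, Kif11, Kif20a, Birc5, Tpx2, Nusap1, Prc1 and Ube2c, were under an unadjusted p of 0.05 in no comparison.

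For each treatment taken alone, no member passed the adjusted threshold. In agoCD40 against isotype, which called 0.718% of all genes, 1 of 36 members (2.78%) was under an unadjusted p of 0.05, against 10.2% of all genes, and it was Cdk2. DESeq2 also called no member there. The mitotic members had a median log2 fold change of 0.30 with 16 of 20 positive, and without agoCD40 3 the median was -0.22 with 9 positive. The S-phase members had -0.07 with 4 of 16 positive, beside -0.02 and 47.2% positive for all genes. In antiIL1R1 against isotype, edgeR called 0% of all genes and no member, and DESeq2 called 3 genes and no member. Ccnd1 and Ccnb1 were the 2 of 36 members (5.56%) under an unadjusted p of 0.05, against 3.65% of all genes. The mitotic median was -0.22 with 6 of 20 positive and the S-phase median -0.05 with 6 of 16 positive, beside -0.02 and 46.4% for all genes. The mitotic median was 0.06 without antiIL1R1 1 and 0.04 without isotype 3, while it was -0.58 without isotype 2 and -0.53 without antiIL1R1 3.

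Both antibodies together gave no member past the threshold either. Combo against isotype called 0.407% of all genes, and Rrm2 and Cdk2 were the 2 of 36 members (5.56%) under an unadjusted p of 0.05, against 11.5% of all genes. DESeq2 called 1 member, Rrm2. The mitotic median was 0.32 with 17 of 20 positive, and it turned to -0.29 with 6 positive without Combo 1 and to 0.01 with 10 positive without isotype 2. The S-phase median was -0.02 with 8 of 16 positive, and all genes had -0.02. Where the agonist was given under blockade, Combo against antiIL1R1 called 0.175% of all genes and no member with edgeR, and 1 member, Ccnd1, with DESeq2. There 8 of 36 members (22.2%) were under an unadjusted p of 0.05, against 15.3% of all genes: Cdc20, Cdk1, Ccnb1, Ccnd1 and Rrm2 higher, and Kif23, Cdk2 and Tyms lower. The mitotic median of 0.53 with 18 of 20 positive became 0.01 with 11 positive without Combo 1. The S-phase median was 0.03, as for all genes.

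The blockade added to the agonist, and the interaction of both antibodies, gave no call among the members. Combo against agoCD40 called 0.00647% of all genes (1 gene) and no member with edgeR or DESeq2, and Rrm2 alone (2.78% of members) was under an unadjusted p of 0.05, against 6.21% of all genes. The mitotic median was -0.00 with 10 of 20 positive, and it ran from -0.70 without Combo 1 to 0.40 without agoCD40 3. In the interaction, which also called 0.00647% of all genes and no member with either tool, Ccnd1 and Mcm5 (5.56% of members) were under an unadjusted p of 0.05, against 7.51% of all genes. Its mitotic median was 0.17 with 12 of 20 positive, with a range of -0.29 to 0.85 over the left-out libraries. The contrasts share groups, so their values are not independent of each other.

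Regulators outside the 40 genes included brakes of division that fell and 1 that rose. In a list of 18 inhibitors of cyclin-dependent kinases and p53-linked brakes, 16 were tested, of which 1 rose and 2 fell under the average agonist effect, with a list median of 0.03. Over all genes that comparison called 2.48%, with 0.996% lower, and the median was -0.00. The list was chosen with earlier results of these data known, so its number of calls cannot be set against these shares. Btg2 (ENSMUSG00000020423), an antiproliferative immediate-early gene, measured 172, 139 and 211 CPM in the isotype libraries, 30.8, 16.4 and 42.7 in agoCD40, 197, 44.3 and 213 in antiIL1R1 and 63.7, 126 and 85.8 in Combo. Every agoCD40 library was under every isotype library, and antiIL1R1 2 was as low as agoCD40 3. It fell by 2.54 ± 0.51 (log2, SE) in agoCD40 against isotype (adjusted p 0.0398, edgeR) and by 1.63 ± 0.35 on average (adjusted p 0.0285). Gadd45b (ENSMUSG00000015312), a stress-induced growth-arrest gene, measured 12.9, 9.34 and 14 CPM in the isotype libraries, 2.46, 1.11 and 3.46 in agoCD40, 8.24, 31.1 and 15.1 in antiIL1R1 and 3.2, 3.24 and 8.94 in Combo. Its average agonist effect of -2.09 ± 0.38 (adjusted p 0.0154) passed with each of the 12 libraries left out in turn, although Combo 3 lay above antiIL1R1 1. Cdkn2c (ENSMUSG00000028551), which encodes the inhibitor p18 of the cyclin D kinases, rose. It measured 6.33, 9.19 and 5.71 CPM in the isotype libraries, 14.2, 12 and 11.9 in agoCD40, 4.6, 8.58 and 7.78 in antiIL1R1 and 17.4, 12.3 and 10.8 in Combo, with every agonist-treated library above every other. Its average agonist effect was 0.90 ± 0.19 (adjusted p 0.027).

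**Figure D5:**
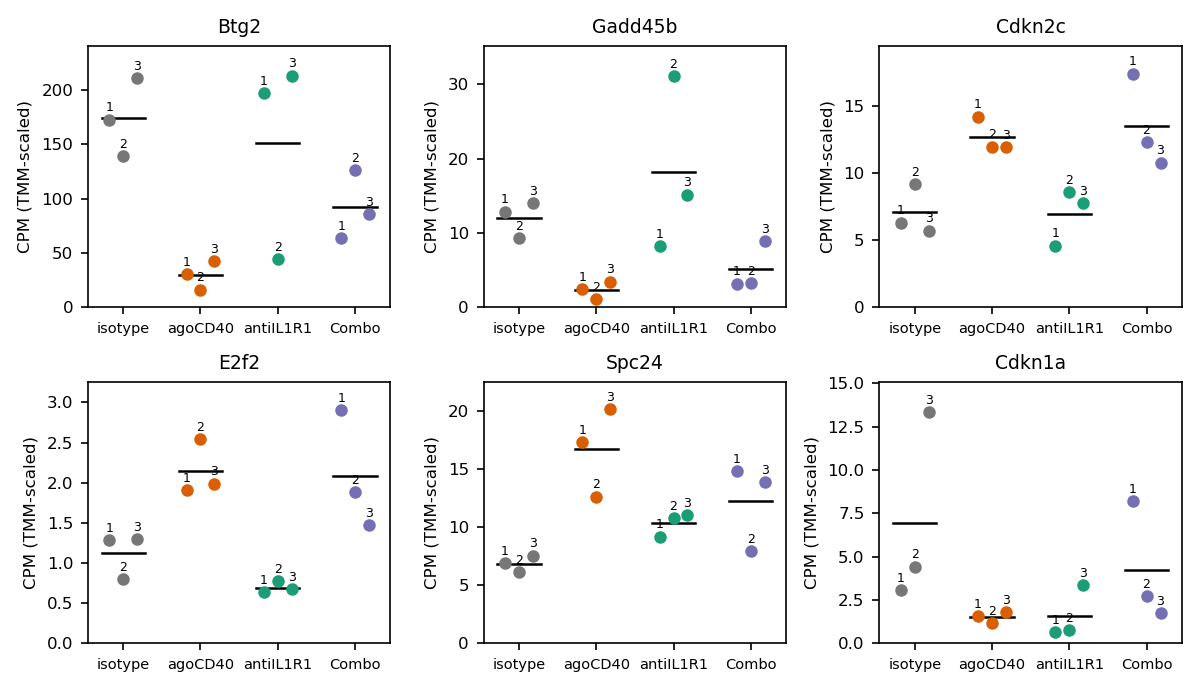
TMM-scaled CPM of the regulators Btg2, Gadd45b, Cdkn2c, E2f2, Spc24 and Cdkn1a, which are not among the 40 genes, in each library (points, with replicate number) and the group mean (line), each axis from 0. Btg2 and Gadd45b are low in agoCD40, with means of 29.98 and 2.34 CPM against 174 and 12.1 CPM in isotype, and Cdkn2c is high in both agonist-treated groups.

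Cdkn1a, the p21 inhibitor, measured 3.06, 4.42 and 13.4 CPM in the isotype libraries, 1.57, 1.18 and 1.8 in agoCD40, 0.637, 0.776 and 3.37 in antiIL1R1 and 8.21, 2.72 and 1.73 in Combo, and its interaction was 3.59 ± 1.04 (adjusted p 0.494). Among 19 cyclins, kinases and E2F regulators of the first gap phase, 1 rose on average, beside 2.48% called over all genes, and the list median was -0.06. This list too was chosen with earlier results known. E2f2 (ENSMUSG00000018983), an activating E2F factor with a role in erythroid and lymphoid cells, measured 1.29, 0.804 and 1.3 CPM in the isotype libraries, 1.91, 2.54 and 1.99 in agoCD40, 0.637, 0.776 and 0.675 in antiIL1R1 and 2.91, 1.88 and 1.48 in Combo. All 6 agonist-treated libraries were above the other 6, and the average agonist effect was 1.25 ± 0.26 (adjusted p 0.0277). With each of the 12 libraries left out in turn, the adjusted p of the average effect ran from 0.03 to 0.0785 for E2f2 (2 of 12 passed), 0.019 to 0.0728 for Cdkn2c (5 passed) and 0.00527 to 0.083 for Btg2 (5 passed). For Btg2 in agoCD40 against isotype it ran from 0.00908 to 0.165 (3 passed).

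The other replication genes had a median near that of all genes, and the other mitotic genes one above it. Of 30 further replication genes, 27 were tested and 0 passed with edgeR in any of the 7 comparisons. Their median average agonist effect was -0.01 with 12 positive, with 5 under an unadjusted p of 0.05 and 1 called by DESeq2. DESeq2 also called 2 of them in Combo against antiIL1R1. Tk1, the thymidine kinase, was the gene of smallest p in Combo against isotype at 0.66 ± 0.20 (log2, SE; adjusted p 0.207, edgeR), from 18.9, 25.2 and 20.5 CPM in isotype to 32.9, 29.95 and 39.4 in Combo. Rfc3, a subunit of the clamp loader, had the smallest p on average at -0.59 ± 0.19 (adjusted p 0.128). Of 42 further mitotic genes 31 were tested, with a median of 0.37 and 23 positive, beside -0.00 and 49.9% positive for all genes. Summed over the 42, the mean level was 135 CPM in isotype, 141 in agoCD40, 137 in antiIL1R1 and 134 in Combo. Within their groups, agoCD40 3 and Combo 1 were again the highest. How the median of this list depends on single libraries was not tested. The replication and mitotic lists too were chosen with earlier results known. Of the 31 mitotic genes tested 1 rose, a share near the 2.48% called over all genes. That gene was Spc24 (ENSMUSG00000074476), a subunit of the NDC80 complex that ties microtubules to kinetochores, which measured 6.91, 6.13 and 7.57 CPM in the isotype libraries, 17.3, 12.6 and 20.2 in agoCD40, 9.19, 10.8 and 11 in antiIL1R1 and 14.8, 7.93 and 13.9 in Combo. It rose by 1.28 ± 0.24 in agoCD40 against isotype (adjusted p 0.0308) and by 0.76 ± 0.17 on average (adjusted p 0.0359), and these calls held with 5 and 3 of the 12 libraries left out, with adjusted p of up to 0.169 and 0.109.

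In the same average agonist effect, which called 2.48% of all genes, most B-cell and neutrophil precursor markers passed the threshold. Of the tested markers, 8 of 10 B-cell and plasma-cell genes, 5 of 7 neutrophil precursor genes, 1 of 10 T-cell and NK-cell genes and 1 of 9 monocyte and macrophage genes (Gpnmb) rose. Prtn3 was the 1 neutrophil precursor gene tested with a negative effect. Camp, Mpo and Ngp averaged 0, 0.0865 and 0.334 CPM in isotype against 4.39, 1.69 and 8.67 in agoCD40. The count filter retained such genes through the groups where they were high, and the lists were chosen with earlier results known. These numbers of calls therefore cannot be set against the share of all genes. In the Kupffer-cell list 4 of 7 fell. In the erythroblast list 1 of 7 fell (Tfrc), while 5 of 7 log2 fold changes were positive with a median of 0.98, and 3 were higher at an unadjusted p under 0.05. Summed Kupffer-cell markers ranged over 244 to 431 CPM in isotype, 116 to 183 in agoCD40, 199 to 241 in antiIL1R1 and 153 to 211 in Combo. Monocyte and macrophage markers ranged over 174 to 323, 235 to 291, 128 to 193 and 259.5 to 331 CPM in the same order. None of the hepatocyte (8), endothelial (6), bile duct (6) and pancreas (1) markers tested passed, although 6 of the 8 hepatocyte markers were negative and 3 were under an unadjusted p of 0.05 (Ttr had the lowest adjusted p, 0.07002). Summed hepatocyte markers were 85400 ± 11948 CPM in isotype, 72633 ± 7994 in agoCD40, 92855 ± 4701 in antiIL1R1 and 64933 ± 2381 in Combo (SD, n = 3).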

How the data were processed

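Liver RNA was measured in 12 libraries, 3 per group, placed in groups by the sample titles. The authors deposited expected counts, which are estimated counts per gene that need not be whole, and, separately, TPM values scaled for gene length and library total. The submitters' processing notes list aligners and quantifiers (STAR, RSEM 1.3.1 and StringTie 2.2.1 among them), DESeq2 1.28.0 and the GRCm39 build. They give no roles. The deposited counts and TPM are named for Salmon, another quantifier, and how it was run was not found in the labels.

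Expected counts were rounded before R 4.3.3 was used. The filterByExpr function of edgeR 4.0.16, with its minimum count of 10, retained the genes tested; scaling was by TMM, and 1 quasi-likelihood fit held all 12 libraries. Adjusted p-values are Benjamini-Hochberg over 15465 genes, with a threshold of 0.05. The 7 comparisons comprised 5 pairwise contrasts, the average agonist effect and the interaction. CPM use TMM-scaled totals. Groups without overlap are described for single genes, and the share of all genes with such separation was not computed. The alternatives tried other scalings (RLE, total counts), DESeq2 1.42.0, all genes without the count filter, a block on replicate number, limma 3.58.1 on log2(TPM + 1) or log2(TPM + 0.1), each library left out, and isotype 2 with antiIL1R1 2 left out.

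In counts simulated for these libraries (15465 genes), 64 of 100 changes of 2-fold and 97 of 100 of 4-fold were recovered for the average agonist effect, and 36 and 84 for agoCD40 against isotype. Changes were planted only in genes above a minimum mean CPM, and mitotic members such as Ccnb1, Aurkb and Plk1 lie under it. The recovery therefore does not cover the lowest members.

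The 40 members and the 14 other lists were chosen with earlier results of these data known. Values in every library are given for members past the threshold, for the 2 of smallest p per phase and comparison, and for Mki67, Top2a, Cdk1, Ccnd1, Mcm2 and Pcna. Cdca8 is given in addition to this rule, beside Aurkb of the same complex. In the other lists, the genes past the threshold, or else that of smallest p, could be named. Promoters came from RefSeq on GRCm38.p6, not the files' build, and were matched by symbol.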

Additional observations from a re-analysis of the deposited data

How the results depend on the processing

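With low counts and 3 libraries a group, depth limits the mitotic members most: 18 of 23 had a median under 30 counts. Of the members' log2 fold changes recomputed for the named genes, 1 turned its direction with another setting: Tyms in Combo against agoCD40 was 0.35 on log2(TPM + 1) and 0.39 on log2(TPM + 0.1), against -0.42 in counts. The cause was not tested. Another scaling by total counts moved the median of all genes by 0.12 for the average agonist effect, 0.13 for Combo against isotype and 0.16 for Combo against antiIL1R1. Relative to that median Cdk2 was at -0.46 with TMM, RLE and total counts alike. The adjusted p of its average agonist effect was 0.0939 with total counts, 0.106 with no filter, 0.0809 with the replicate block and 0.137 without isotype 2 and antiIL1R1 2 together. It ran from 0.0467 to 0.126 over the 12 left-out libraries, of which 11 ended the call.

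The number of members called in the average agonist effect was 0 with total-count scaling, the replicate block, either TPM scale or without isotype 2 and antiIL1R1 2, but 3 with DESeq2 and 2 with no filter (Cdc20 and Ccnd1, not Cdk2). It was 0 or 1 over the left-out libraries. DESeq2 called 1 member in Combo against isotype and 1 in Combo against antiIL1R1. With no filter 1 member, Ccnd1, was called in each of antiIL1R1 against isotype, Combo against antiIL1R1 and the interaction. Combo against antiIL1R1 had 0 to 1 over the left-out libraries.

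Over all genes, DESeq2 called 399 in agoCD40 against isotype, 3 in antiIL1R1 against isotype, 377 in Combo against isotype, 86 in Combo against agoCD40, 486 in Combo against antiIL1R1, 894 in the average agonist effect and 87 in the interaction. With no filter the same comparisons gave 466, 63, 466, 197, 742, 1005 and 232. Limma gave 59, 46, 221 and 0 on log2(TPM + 1), and 67, 44, 228 and 0 on log2(TPM + 0.1), for agoCD40 against isotype, Combo against antiIL1R1, the average agonist effect and the interaction. Without isotype 2 and antiIL1R1 2 together there were 35 in Combo against isotype, 10 in Combo against antiIL1R1, 230 in the average and 0 in the interaction, where total-count scaling also gave 0. Leaving out single libraries gave 28 (without agoCD40 3) to 108 for agoCD40 against isotype and 12 (without Combo 1) to 63 for Combo against isotype. It gave 0 to 7 for Combo against agoCD40, 4 to 71 for Combo against antiIL1R1, 142 to 373 for the average and 0 to 13 for the interaction.

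Replicate numbers did not pair the libraries across all 4 groups. The 18 same-number pairs had correlations of -0.39 to 0.41 with 2 over 0.1, and 4 of 12 libraries correlated best with their own number. Those 2 pairs were isotype with antiIL1R1, at 0.41 for number 2 and 0.40 for number 1, while number 3 gave 0.056. Pairing between these groups alone was not tested. With the replicate block, 72 genes were called in agoCD40 against isotype, 23 in Combo against isotype, 2 in Combo against agoCD40, 9 in Combo against antiIL1R1, 220 in the average and 0 in the interaction, and 0 members in the average.

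The S-phase median was -0.28 in agoCD40 against isotype and -0.25 in Combo against isotype without isotype 2 and antiIL1R1 2 together. On log2(TPM + 0.1) it was -0.26 in antiIL1R1 against isotype, 0.29 in Combo against antiIL1R1 and 0.34 in the interaction. The mitotic median of the average effect was 0.14 on log2(TPM + 1). Over the left-out libraries the mitotic median ran from -0.22 to 0.83 in agoCD40 against isotype, -0.58 to 0.06 in antiIL1R1 against isotype, -0.29 to 0.74 in Combo against isotype, -0.70 to 0.40 in Combo against agoCD40, 0.012 to 0.82 in Combo against antiIL1R1 and -0.29 to 0.85 in the interaction. The S-phase median ran from -0.28 to 0.026 in agoCD40 against isotype and -0.26 to 0.21 in Combo against isotype.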
